A study of Mus musculus with 20 samples.

Results

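The RGK and ARL4 genes encode 2 small families of GTP-binding proteins, and 7 of them were followed in mouse hypothalamus after risperidone. The members were taken by symbol through the Ensembl identifiers of the count table, which gave 4 RGK genes (Rrad, Gem, Rem1 and Rem2) and 3 ARL4 genes (Arl4a, Arl4c and Arl4d) among 55471 genes. All 7 passed the filter on low counts, which left 17893 genes. Rrad and Arl4d were selected on their lower values against control in these same libraries, so their values are given as a description with no test. The 5 relatives came in with their families whatever their own values, and they were tested.

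RGK proteins are Ras-related GTPases that lack the lipid anchor of classical Ras. They bind the beta subunits of high-voltage-activated calcium channels and restrain calcium entry through these channels. ARL4 proteins are ARF-like GTPases that sit at the plasma membrane and recruit cytohesins, the exchange factors that switch on ARF6, which directs actin remodelling and endosomal recycling. In neurons, Rem2 is known for roles in synapse formation and dendrite branching. Rrad and Gem are known as genes whose transcription responds quickly to outside signals in many cell types.

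RNA sequencing was done on hypothalamus of wild-type C57BL/6 mice in 3 groups. There were 6 libraries from mice fed a diet with risperidone for 4 weeks by pair-feeding, 7 from mice fed that diet for 4 weeks ad libitum, and 7 from mice on control diet ad libitum. Risperidone, an antipsychotic, acts as an antagonist at dopamine D2 and serotonin 2A receptors. Pair-feeding limits food to the amount that another group eats, and no pair-fed group on control diet is among the samples. The labels say that weights did not differ from those on control diet, without settling whether this covers both feeding conditions. Nor do they state that every library came from its own mouse. The p-values therefore rest on the spread from library to library, part of which may be technical. Comparisons against control share the 7 control libraries.

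The depth was 17316043 to 18606543 counts for 19 libraries and 9748005 counts for ad libitum library 3. Ribosomal RNA genes and their look-alikes took 22.4% of the counts of library 3, against 2.26% to 5.19% in every other library. Ad libitum library 1 stood apart in another way. Its markers of cortex, hippocampus and amygdala summed to 1641.5 CPM, against 129.64 to 268.64 CPM in the other libraries of all groups. The 268.64 CPM was that of ad libitum library 2, and the next highest was 190.09 CPM in ad libitum library 5. Markers of hypothalamic neurons were detected in all groups, at a sum of 898.56 to 1363.2 CPM in pair-fed, 540.19 to 1373.9 CPM in ad libitum and 1198.1 to 1585 CPM in control libraries. Values without ad libitum libraries 1 and 3 are therefore given beside the results, and ad libitum library 2 stays in them. Levels are CPM (counts over the library total, scaled between libraries with TMM), and a gene was called changed at an adjusted p under 0.05 over all 17893 genes.

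Promoter sequences from RefSeq (build GRCm38.p6) matched 5 of the 7 members, namely Rem1, Rem2, Arl4a, Arl4c and Arl4d. That of Arl4d, the ARL4 gene with lower levels in both risperidone groups, is shown with that of its most abundant relative Arl4c, whose level differed little between groups. The Arl4d sequence is the 250 bases before the RefSeq start, chr11:101665291-101665540, plus strand. The Arl4c sequence, chr1:88702222-88702441, minus strand, is the first 220 of the 250 bases before its start, ending just before the gene begins in GENCODE. Capitals mark TGACG on either strand, the half-site of the cAMP response element.
Arl4d: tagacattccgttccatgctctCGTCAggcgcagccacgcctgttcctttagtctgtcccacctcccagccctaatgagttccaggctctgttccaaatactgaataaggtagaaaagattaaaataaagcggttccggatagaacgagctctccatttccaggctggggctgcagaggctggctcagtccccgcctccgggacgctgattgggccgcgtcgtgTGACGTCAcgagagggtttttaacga
Arl4c: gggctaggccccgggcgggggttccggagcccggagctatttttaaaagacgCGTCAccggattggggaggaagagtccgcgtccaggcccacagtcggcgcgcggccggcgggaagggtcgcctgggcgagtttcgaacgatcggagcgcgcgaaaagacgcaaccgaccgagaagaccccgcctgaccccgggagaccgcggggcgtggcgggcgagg

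The Arl4d sequence holds the whole palindrome TGACGTCA at 26 to 19 bases before the start, where 2 half-sites on opposite strands overlap, and another half-site lies at 228 to 224 bases. Of 32851 RefSeq promoters, 1.55% hold the palindrome in the same 250 bases, and none of the other members in the table does. Single half-sites, present in 17.8% of the promoters, lie at 198 to 194 bases in Arl4c and at 95 to 91 bases in the second of 2 Arl4a promoters. The half-site of the glucocorticoid response element, AGAACA, was found on either strand in Rem2 only, at 113 to 108 bases, and 16.1% of all promoters hold it. The AP-1 site TGANTCA was found in the first Arl4a promoter only, at 248 to 242 bases, and 6.75% of all promoters hold it. GGGCGG boxes were found in Rem1, Rem2, Arl4a and Arl4c, against 32.7% of all promoters. The CArG box and TATAAA were found in none of them, against 1.47% and 12.4% of all promoters. These matches describe letters in a window and show no binding.

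All members are protein-coding genes on different chromosomes of GRCm38. Rrad lies at chr8:104628070-104631327 on the minus strand, Gem at chr4:11704457-11714752, Rem1 at chr2:152626951-152635198 and Rem2 at chr14:54476100-54480431, each of these 3 on the plus strand. Arl4a lies at chr12:40005447-40038025 and Arl4c at chr1:88673125-88702221, both on the minus strand, and Arl4d at chr11:101665541-101667832 on the plus strand. The exons of Rrad overlap those of an antisense gene, Gm33023, over 141 bp, which is 8.94% of the exon length of Rrad. Gm33023 had 12 to 15 counts in pair-fed, 11 to 18 in ad libitum and 6 to 19 in control libraries, against 66 or more for Rrad in every library. The strand setting of the counting is not given in the sources used here, so reads in that overlap cannot be told apart. No other member overlaps a gene, and the longest run of bases that transcripts of 2 members share is 23 bp.

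Per kilobase of exon, the order of the levels was the same in the 3 groups, with Arl4c highest, then Rrad, Arl4d, Arl4a, Gem and Rem2, and Rem1 lowest. In control libraries Arl4c averaged 17.6 ± 0.414, Rrad 14.0 ± 1.497, Arl4d 13.01 ± 1.30, Arl4a 3.67 ± 0.170, Gem 3.22 ± 0.367, Rem2 1.64 ± 0.267 and Rem1 0.335 ± 0.117 CPM per kb (SD, n = 7). Neighbours with overlapping ranges in control libraries were Rrad with Arl4d and Arl4a with Gem. In ad libitum libraries the ranges overlapped for Rrad with Arl4d and for Gem with Rem2, and in pair-fed libraries for Arl4c with Rrad, Arl4a with Gem and Gem with Rem2. With the longest transcript as the length, Arl4a changed places with Arl4d in pair-fed libraries and no other position changed.

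Of the 5 relatives, edgeR's quasi-likelihood test called 0 in each comparison. Over all genes tested it called 0.0615% in ad libitum against control, 0.486% in pair-fed against control and 0.397% in pair-fed against ad libitum. At an unadjusted p under 0.05 the relatives counted 1 (Gem), 0 and 2 (Gem and Arl4c) in the same order, and 13.1%, 6.66% and 13.5% of all genes tested did so. The unadjusted counts of the gene lists are to be read against these shares. DESeq2 called 1 (Gem), 0 and 1 (Gem), and limma-voom called 0 in each.

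Rrad, the channel inhibitor first found as a gene raised in diabetic muscle, was low in ad libitum risperidone and was not low in pair-fed risperidone. Its level was 20.4 CPM at the lowest, 24.1 at the median and 31.6 at the highest in pair-fed libraries. In ad libitum libraries it was 9.30, 14.2 and 16.1 CPM, and in control libraries 18.6, 23.1 and 25.3 CPM. Every ad libitum library lay below every control and every pair-fed library, and the pair-fed and control ranges overlapped. How many of all genes tested separate groups in this way was not counted, which holds for Gem and Arl4d below too. The means were 25.6 ± 4.68 CPM in 6 pair-fed, 13.8 ± 2.53 CPM in 7 ad libitum and 22.1 ± 2.36 CPM in 7 control libraries (SD). The log2 fold change was −0.66 (SE 0.112, 95% interval −0.89 to −0.43) for ad libitum against control. It was 0.21 (SE 0.112, interval −0.023 to 0.44) for pair-fed against control, and 0.87 (SE 0.115, interval 0.63 to 1.11) for pair-fed against ad libitum. The lowest ad libitum levels were those of libraries 3 and 1. Without both, the values were −0.55 against control in ad libitum and 0.21 in pair-fed, and 0.76 between the risperidone groups.

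**Figure D1:**
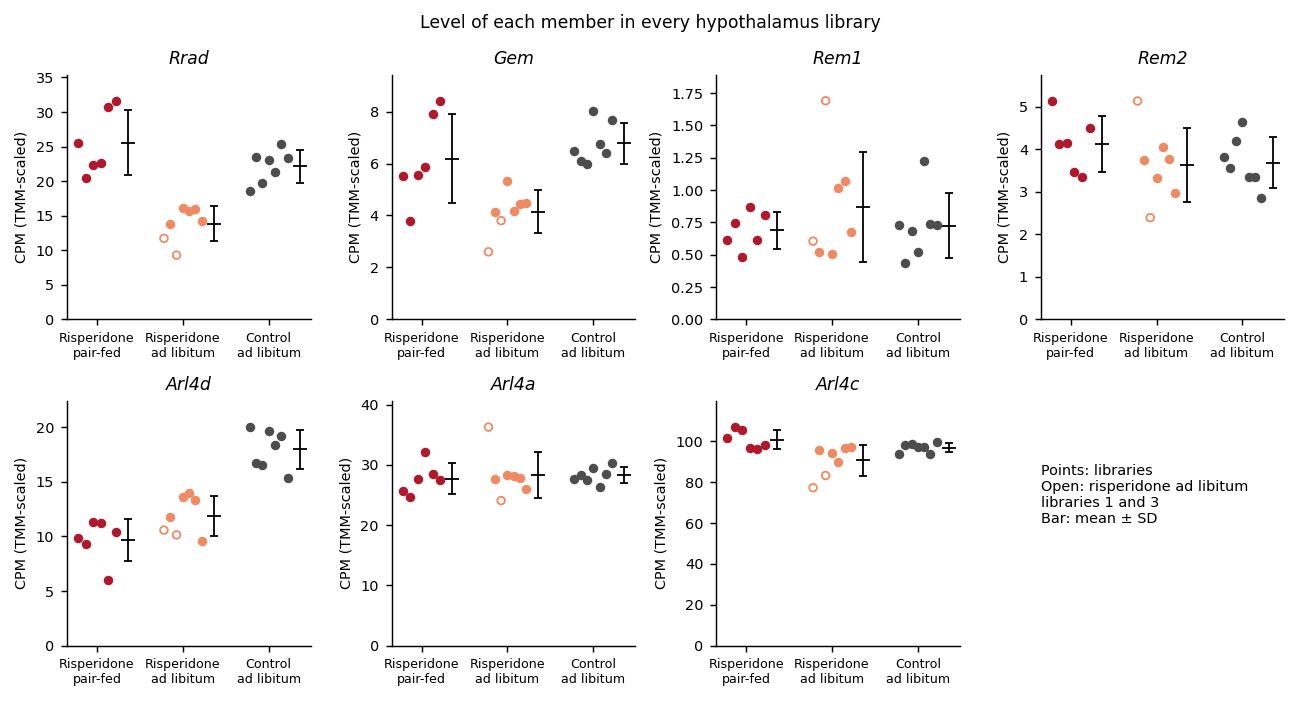
Level of each of the 7 genes in every library, in TMM-scaled CPM on axes that start at 0, with 6 pair-fed, 7 ad libitum and 7 control libraries as points and the mean ± SD as a bar. Rrad and Gem points of the ad libitum group all lie below those of the control group, and Arl4d points of both risperidone groups lie below those of the control group. The share of all genes with such a separation was not counted. Open points are ad libitum libraries 1 and 3.

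Gem, which like Rrad restrains calcium channels, had values that ran with those of Rrad, and it did not pass the test. Its level was 3.78 CPM at the lowest, 5.72 at the median and 8.42 at the highest in pair-fed libraries. In ad libitum libraries it was 2.60, 4.18 and 5.32 CPM, and in control libraries 6.00, 6.47 and 8.01 CPM. All 7 ad libitum libraries lay below every control library, a separation whose share over all genes tested was not counted. Of the 6 pair-fed libraries, 4 lay below every control library and 5 above every ad libitum library, so the pair-fed range overlapped both others. The log2 fold change was −0.70 (SE 0.152, interval −1.02 to −0.39) for ad libitum against control, with an adjusted p of 0.0746 in edgeR's quasi-likelihood test. For pair-fed against ad libitum it was 0.57 (SE 0.158, interval 0.24 to 0.90; edgeR adjusted p = 0.130), and for pair-fed against control −0.13 (SE 0.151, interval −0.44 to 0.18; edgeR adjusted p = 0.980). DESeq2 called Gem in ad libitum against control (adjusted p = 0.00546) and in pair-fed against ad libitum (adjusted p = 0.0455). Over all alternatives the adjusted p ranged from 0.00546 to 0.189 in the first and from 0.0348 to 0.372 in the second comparison. In the edgeR fit the first call was made without ad libitum library 4 (0.0459) or pair-fed library 2 (0.0492), and the second without pair-fed library 2 (0.0348). Without ad libitum libraries 1 and 3 the log2 values were −0.59 (edgeR adjusted p = 0.0766) and 0.46 (edgeR adjusted p = 0.205).

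Rem1 and Rem2, the other channel-binding members, showed no such pattern. Rem1 was near the lower limit of the counts, with 9 to 16 counts in pair-fed, 9 to 19 in ad libitum and 8 to 22 in control libraries. Its mean was 0.689 ± 0.143 CPM in pair-fed, 0.869 ± 0.427 CPM in ad libitum and 0.723 ± 0.252 CPM in control libraries (SD). The interval of its log2 fold change was −0.37 to 0.70 for ad libitum and −0.62 to 0.49 for pair-fed against control, so changes in either direction of that size were not detectable at this depth. Rem2 averaged 4.12 ± 0.666 CPM in pair-fed, 3.63 ± 0.870 CPM in ad libitum and 3.69 ± 0.602 CPM in control libraries (SD). Its log2 fold change was 0.00047 (interval −0.28 to 0.28) for ad libitum and 0.16 (interval −0.13 to 0.45) for pair-fed against control. The interval of Rem2 in ad libitum against control does not reach the value of Gem. Rrad was selected on its value, so the interval is not compared with it.

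As a share of the summed level of the 4 RGK genes per kilobase, Rrad made up 76.0 ± 1.08% in pair-fed, 68.4 ± 3.31% in ad libitum and 72.9 ± 2.71% in control libraries (SD). Gem made up 13.6 ± 1.80% in pair-fed, 15.5 ± 2.61% in ad libitum and 16.8 ± 1.61% in control libraries (SD). The ratio of Rrad CPM to Gem CPM averaged 4.26 ± 0.641 in pair-fed, 3.41 ± 0.650 in ad libitum and 3.29 ± 0.440 in control libraries (SD). In ad libitum and control libraries this ratio differed by less than the spread between libraries.

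Arl4d, which recruits cytohesins to the membrane, was low in both risperidone groups. Its level was 6.01 CPM at the lowest, 10.2 at the median and 11.3 at the highest in pair-fed libraries. In ad libitum libraries it was 9.61, 11.8 and 14.0 CPM, and in control libraries 15.3, 18.4 and 20.02 CPM. All 6 pair-fed and all 7 ad libitum libraries lay below every control library, and the ranges of the risperidone groups overlapped. The means were 9.69 ± 1.95 CPM in pair-fed, 11.9 ± 1.80 CPM in ad libitum and 17.98 ± 1.79 CPM in control libraries (SD). The log2 fold change was −0.89 (SE 0.118, interval −1.14 to −0.65) for pair-fed and −0.59 (SE 0.112, interval −0.82 to −0.36) for ad libitum against control. Pair-fed against ad libitum it was −0.30 (SE 0.121, interval −0.55 to −0.050). When ad libitum libraries 1 and 3 were left out, the values were −0.89, −0.53 and −0.36 in the same order.

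Arl4a and Arl4c stayed close to their control levels. Arl4a had 24.7 CPM at the lowest, 27.6 at the median and 32.2 at the highest in pair-fed libraries, against 26.3, 28.3 and 30.3 CPM in control libraries. In ad libitum libraries Arl4a had 24.1, 27.9 and 36.3 CPM, with the highest level in library 1. The interval of its log2 fold change was −0.14 to 0.15 for ad libitum and −0.18 to 0.12 for pair-fed against control. Arl4d was selected on its values, so these intervals are not compared with them. Arl4c had 96.0, 99.9 and 107 CPM at the lowest, median and highest in pair-fed libraries, against 93.8, 97.3 and 99.8 CPM in control libraries. In ad libitum libraries Arl4c had 77.3, 94.1 and 97.0 CPM, and the lowest levels were those of libraries 1 and 3. Its log2 fold change was 0.056 (interval −0.045 to 0.16) for pair-fed and −0.095 (interval −0.19 to 0.0023) for ad libitum against control. Between pair-fed and ad libitum it was 0.15 (interval 0.050 to 0.25; edgeR adjusted p = 0.202), and 0.087 without ad libitum libraries 1 and 3.

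The make-up of the ARL4 family per kilobase differed with the level of Arl4d. Arl4d made up 24.0 ± 3.73% of the summed level of the 3 genes in pair-fed, 29.7 ± 2.87% in ad libitum and 37.8 ± 2.83% in control libraries (SD). Arl4c made up 63.5 ± 3.43% in pair-fed, 57.4 ± 3.35% in ad libitum and 51.5 ± 2.41% in control libraries (SD).

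**Figure D2:**
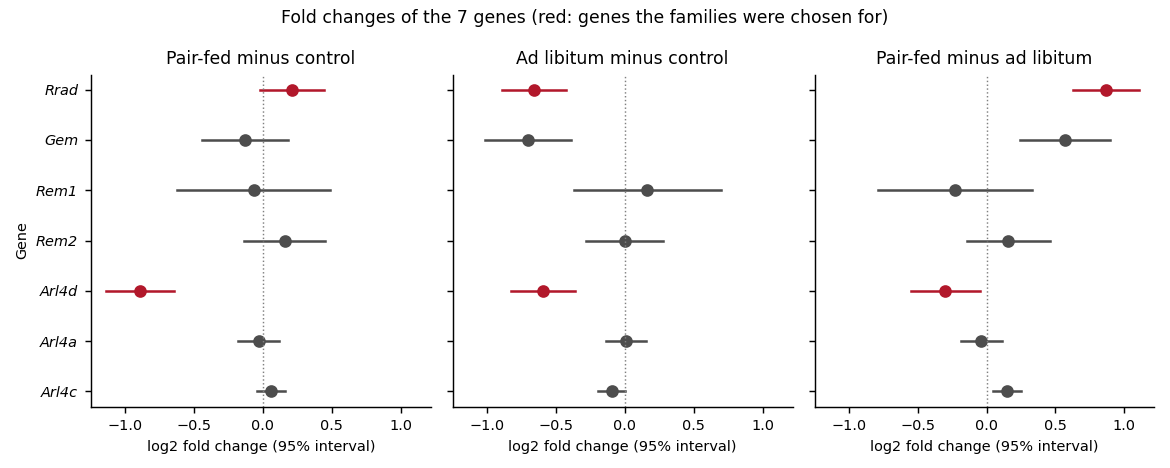
Log2 fold change of each of the 7 genes (point) with its 95% interval (line) in pair-fed minus control, ad libitum minus control and pair-fed minus ad libitum libraries. Red marks Rrad and Arl4d, which were selected on their values. The intervals of Rem1, Rem2 and Arl4a include 0 in all comparisons, and that of Gem lies below 0 in ad libitum minus control.

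Rrad and Gem also varied together between libraries of the same group. After the mean of each group was subtracted, their log2 CPM had a correlation of 0.69 over 20 libraries, and 0.75 over 18 libraries without ad libitum libraries 1 and 3. This was the highest correlation among all pairs of the members. Rrad with Arl4d gave 0.038, and −0.24 without those libraries. Rem2 with Arl4d gave 0.38 and 0.49, Rrad with Arl4c 0.28 and −0.47, and Gem with Arl4c 0.24 and −0.49. Over 20 libraries the genes most like Rrad, named below, had correlations with it of 0.78 to 0.82, above that of Gem. The points share libraries and their depth, so these values are a description. Pair-fed libraries 5 and 6 had the highest levels of that group for both Rrad (30.8 and 31.6 CPM) and Gem (7.90 and 8.42 CPM), and pair-fed library 2 had the lowest for both (20.4 and 3.78 CPM).

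**Figure D3:**
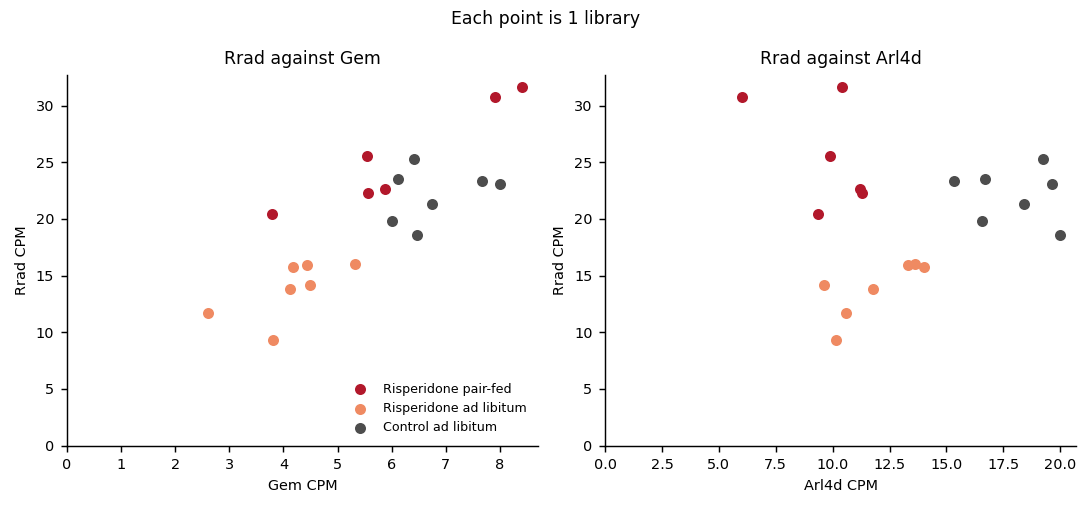
Rrad CPM of each of the 20 libraries against Gem CPM (left) and against Arl4d CPM (right), coloured by group. Libraries with more Rrad tend to have more Gem, with a correlation of 0.69 once group means are subtracted, and in the plot against Arl4d the pair-fed libraries stand apart at high Rrad and low Arl4d.

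The genes whose level most resembled Rrad within groups, among 13663 genes with a mean of at least 1 CPM, were Ubxn4 (correlation 0.82), Hbb-bt (0.81), Mcfd2 (0.80), Zfp383 (0.80) and Tbc1d10a (0.78). Without ad libitum libraries 1 and 3 none of these 5 was among the first 5, and Ubxn4 and Hbb-bt were at 0.63 and 0.66. Hbb-bt encodes a beta globin of red blood cells. For Arl4d they were Alg14 (0.77), Errfi1 (0.72), Atl3 (0.70), Bcl2l1 (0.69) and Fbxo36 (0.68). Without those libraries Alg14 and Atl3 were still among the first 5. With the group means left in, the 5 genes most like Arl4d over the 20 libraries were Ddit4 (0.93), Errfi1 (0.91), Nfkbia (0.87), F3 (0.86) and Spsb1 (0.84). Ddit4, Errfi1 and Nfkbia stand in the list of glucocorticoid-responsive genes. For Rrad they included Apoa2 (0.87), Fabp7 (0.85), Trim27 (0.85) and Tiparp (0.83). These values hold the group differences on which Rrad and Arl4d were selected.

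Partners of the RGK proteins did not pass the test. Of 15 measured subunits of high-voltage-activated calcium channels, edgeR, DESeq2 and limma-voom each called 0 in every comparison. The median log2 fold change of the list was 0.066 for ad libitum and −0.038 for pair-fed against control, and −0.18 for pair-fed against ad libitum, beside −0.0049 over all genes in the last comparison. With ad libitum libraries 1 and 3 left out, these medians were −0.021, −0.040 and −0.059, so the first one turned its direction. At an unadjusted p under 0.05 the counts were 2, 1 and 5 of 15 in the same order, beside 13.1%, 6.66% and 13.5% of all genes. The smallest p in ad libitum against control belonged to Cacnb4, a beta subunit (log2 0.30, edgeR adjusted p = 0.158), and Cacna1e, the R-type pore (0.25, 0.318). In pair-fed against control they belonged to Cacna1s, the skeletal muscle pore (−0.61, edgeR adjusted p = 0.396), and Cacna1a, the P/Q-type pore (−0.14, 0.843). Between the risperidone groups they belonged to Cacna1c, an L-type pore (−0.38, edgeR adjusted p = 0.170), and Cacnb4 (−0.24, 0.227). Without ad libitum libraries 1 and 3 Cacna1e was at 0.032 in ad libitum against control and Cacna1c at −0.16 between the risperidone groups.

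Of 16 other proteins known to bind RGK members, such as calmodulins and 14-3-3 proteins, each tool called 0 in every comparison, and 3, 0 and 2 had an unadjusted p under 0.05. The list's medians were 0.023, 0.0088 and −0.032 in the order used above. The smallest p belonged to Calm3 (log2 0.17, edgeR adjusted p = 0.288) and Ywhaz (0.21, 0.291) in ad libitum against control, and to Ezr (−0.17, 0.774) and Camk2b (−0.061, 0.970) in pair-fed against control. Between the risperidone groups it belonged to Camk2a (log2 −0.74, edgeR adjusted p = 0.300) and Ywhaz (−0.20, 0.318). When ad libitum libraries 1 and 3 were left out, Camk2a was at −0.12 and Ywhaz at −0.10 in that last comparison, and Calm3 and Ywhaz were both at 0.11 in ad libitum against control.

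Of 17 partners of ARL4 proteins, which include cytohesins, ELMO1 and ARF6, each tool called 0 in every comparison, and 1, 0 and 1 had an unadjusted p under 0.05. The medians were 0.044, 0.024 and −0.031, and −0.0025, 0.022 and 0.00078 without ad libitum libraries 1 and 3. Elmo1, a guanine exchange adaptor, had the smallest p in ad libitum against control (log2 0.15, edgeR adjusted p = 0.256), followed by the cytohesin Cyth1 (0.075, 0.388). In pair-fed against control they were the importin Kpna2 (log2 0.13, edgeR adjusted p = 0.750) and the kinase Pak1 (0.075, 0.9498). Between the risperidone groups they were Kpna2 (log2 0.17, edgeR adjusted p = 0.282) and Elmo1 (−0.12, 0.373).

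More distant relatives gave the same counts in edgeR. Of 22 measured other ARF and ARF-like GTPases each tool called 0, with 2, 1 and 3 at an unadjusted p under 0.05 and medians of −0.011, 0.015 and 0.028. Arf5 (log2 0.22, edgeR adjusted p = 0.193) and Arf3 (0.24, 0.381) had the smallest p in ad libitum against control, where Arf3 was at 0.055 without ad libitum libraries 1 and 3. Arl5b (0.17, edgeR adjusted p = 0.594) and Arl8b (0.076, 0.888) had it in pair-fed against control. Arl5b (0.21, edgeR adjusted p = 0.217) and Arf5 (−0.19, 0.244) had it between the risperidone groups. Of 29 measured other GTPases of the Ras branch edgeR called 0, with 7, 2 and 4 at an unadjusted p under 0.05 and medians of 0.00018, 0.034 and −0.00022. DESeq2 called 0 of the 29 in each comparison, and limma-voom called 1 lower in pair-fed against control and 0 otherwise. Rasd2 (log2 0.20, edgeR adjusted p = 0.174) and the dexamethasone-induced Rasd1 (−0.35, 0.201) had the smallest p in ad libitum against control. Rasl11a (−0.45, edgeR adjusted p = 0.566) and Diras1 (0.14, 0.707) had it in pair-fed against control, and Rasl10a (−1.37, 0.220) and Rasd2 (−0.17, 0.241) between the risperidone groups. Without ad libitum libraries 1 and 3 Rasl10a was at −0.37 there, and the medians of these Ras-branch genes were 0.017, 0.032 and 0.012. In that fit edgeR called Rasl11a lower in pair-fed against control (log2 −0.45, edgeR adjusted p = 0.0428).

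Some genes that respond to neuronal activity, as Rrad and Gem are known to do in some cells, passed the test in the pair-fed group. Their number differed with the tool. Of 20 such genes 1, Fos, a subunit of the AP-1 transcription factor, rose in pair-fed against control (log2 0.67, edgeR adjusted p = 0.0290), and 19 of 20 had higher values, with a median of 0.30. In pair-fed against ad libitum 3 rose, namely Fos (1.35, edgeR adjusted p = 2.31e-05), Fosl2 (0.75, 0.00400) and Fosb (0.91, 0.00400), with a median of 0.16. In ad libitum against control edgeR called 0 of 20, with 6 at an unadjusted p under 0.05 beside 13.1% of all genes, and a median of 0.049. Fos and Fosb had log2 values of −0.68 (edgeR adjusted p = 0.0736) and −0.58 (0.136). DESeq2 called 2 lower and limma-voom 4 lower there. In pair-fed against control DESeq2 called 2 higher and limma-voom 5 higher, and between the risperidone groups 5 and 9 higher. With ad libitum libraries 1 and 3 left out, edgeR called 4 of the 20 lower in ad libitum against control. It then called 5 higher in pair-fed against control and 10 higher between the risperidone groups, and the medians were −0.26, 0.30 and 0.46. Over all genes that fit called 0.267%, 1.39% and 0.79% in the same order. With all libraries in, these shares were 0.0615%, 0.486% and 0.397%. Fos stood at 24.7 to 38.8 CPM in pair-fed, 8.59 to 20.6 CPM in ad libitum and 17.5 to 28.8 CPM in control libraries. Within groups, Fos had a correlation of 0.27 with Rrad and 0.095 with Gem over 20 libraries, and 0.33 and 0.61 without ad libitum libraries 1 and 3.

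Most glucocorticoid-responsive genes had lower values in both risperidone groups, as Arl4d had. Of 19 such genes, 11 fell in pair-fed against control, led by Cdkn1a, a cell-cycle inhibitor (log2 −1.01, edgeR adjusted p = 2.22e-08), Tsc22d3, a mediator of glucocorticoid action (−0.62, 1.54e-05), and Nfkbia, the NF-kappa-B inhibitor (−0.53, 3.73e-05). The median of the list was −0.48. Over all genes edgeR called 0.486% in pair-fed against control, 0.0615% in ad libitum against control and 0.397% between the risperidone groups. In ad libitum against control 2 fell, Ddit4, an inhibitor of mTORC1 (−0.30, edgeR adjusted p = 0.0343), and Klf15, a transcription factor (−0.31, 0.0343), with lower values for 16 of 19 and a median of −0.21. There DESeq2 called 5 lower and 1 higher, limma-voom 6 lower and 1 higher, and edgeR 4 lower without ad libitum libraries 1 and 3. Pair-fed against ad libitum 6 fell, led by Cdkn1a (−0.81, edgeR adjusted p = 1.09e-06), Plin4 (−1.67, 0.000279) and Tsc22d3 (−0.41, 0.00275), with a median of −0.21. Within groups, Arl4d had a correlation of 0.67 with Ddit4, 0.72 with Errfi1 and 0.46 with Nfkbia over 20 libraries. Without ad libitum libraries 1 and 3 these were 0.65, 0.70 and 0.46. The corresponding values of Rrad were 0.081, 0.27 and 0.21 over 20 libraries, and −0.19, 0.10 and 0.21 without those libraries. Ddit4, Errfi1 and Nfkbia were picked because they were most like Arl4d in these same libraries with the group means left in. Their correlations are therefore a description with no test, and correlations of the other genes in the list are not given.

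Rrad is also known as a target of p53. Of 14 measured p53-responsive genes, 2 fell in pair-fed against control, Cdkn1a (also in the glucocorticoid list) and Trp53inp1 (log2 −0.35, edgeR adjusted p = 0.0184). Pair-fed against ad libitum 1 fell (Cdkn1a), and in ad libitum against control edgeR called 0, with 4 at an unadjusted p under 0.05. The smallest p there belonged to Trp53inp1 (−0.34, edgeR adjusted p = 0.0736) and Cdkn1a (−0.21, 0.214), and DESeq2 called 1 lower and limma-voom 0. The medians of the list were 0.027 for ad libitum and 0.018 for pair-fed against control, and −0.024 between the risperidone groups. Over all genes edgeR called 0.486% in pair-fed against control and 0.397% in pair-fed against ad libitum.

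**Figure D4:**
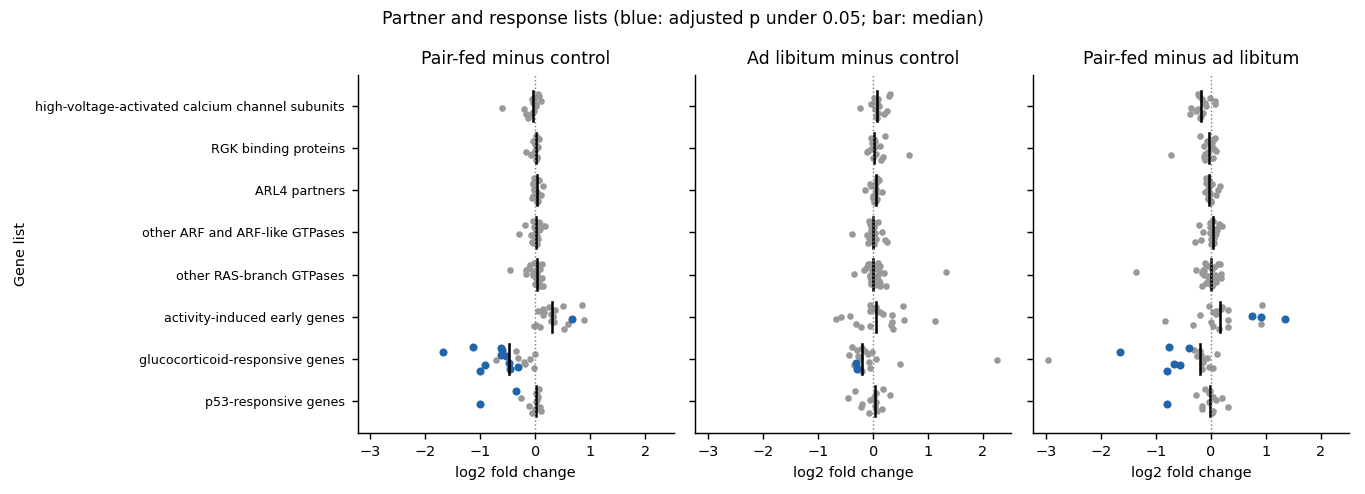
Log2 fold change of each measured gene (points) of 8 lists in the same 3 comparisons, with the median of a list as a bar and genes at an adjusted p under 0.05 in blue. Blue points lie in the activity, glucocorticoid and p53 lists, and the medians of the 5 lists of partners and relatives lie between −0.18 and 0.066 with all libraries in.

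Markers of some cell types had shifted values beside those of Rrad and Gem. The 11 measured markers of pericytes, smooth muscle and fibroblasts had a median log2 fold change of −0.35 in ad libitum against control, with lower values for 9 and none called. It was −0.057 in pair-fed against control and 0.26 between the risperidone groups. Without ad libitum libraries 1 and 3 the medians were −0.30, −0.058 and 0.28. In ad libitum against control of that fit, Pdgfrb (0.061), Kcnj8 (0.060) and Abcc9 (0.12) were higher. The other markers of the list were lower, from Rgs5 (−0.041) to Col1a2 (−0.51). The summed level of the list was 202.34 to 331.23 CPM in pair-fed, 202.73 to 314.04 CPM in ad libitum and 216.69 to 323.61 CPM in control libraries. The 8 ependymal markers had medians of −0.28, −0.010 and 0.28 in the same order, with lower values for 8 of 8 in ad libitum against control and sums of 56.5 to 74.6 CPM in pair-fed, 41.8 to 61.5 CPM in ad libitum and 58.7 to 71.6 CPM in control libraries. Without ad libitum libraries 1 and 3 the ependymal medians were −0.23, −0.012 and 0.27. The 11 markers of hypothalamic neurons had medians of −0.38, −0.18 and 0.24, and of −0.28, −0.18 and 0.13 without ad libitum libraries 1 and 3. The 5 blood markers had medians of −0.24, 0.32 and 0.57, and of −0.027, 0.32 and 0.35 without ad libitum libraries 1 and 3. They summed to 49.7 to 189 CPM in pair-fed, 36.9 to 120 CPM in ad libitum and 56.0 to 132 CPM in control libraries. No marker in these 4 lists was at 0 in a whole group, and edgeR called 0 of their genes in each comparison. At an unadjusted p under 0.05 there were 2, 0 and 0 markers of pericytes and related cells, 5, 1 and 6 of ependyma, 6, 0 and 1 of hypothalamic neurons, and 0, 0 and 2 of blood, beside 13.1%, 6.66% and 13.5% of all genes. DESeq2 called 1 ependymal marker lower in ad libitum against control and 1 higher between the risperidone groups, limma-voom the second count only, and neither called a marker of the other 3 lists. By contrast, the 8 endothelial markers had medians of 0.097, 0.10 and 0.074, and of 0.12, 0.10 and 0.020 without ad libitum libraries 1 and 3. Only limma-voom called 1 of them, higher in pair-fed against control. Markers of cortex, hippocampus and amygdala had medians of 0.98, −0.053 and −1.09, and of 0.20 and −0.26 in the first and last comparison without ad libitum libraries 1 and 3. The 3 measured pituitary markers of 7 had medians of −0.49, −0.29 and 0.20. Without those libraries Prl passed the filter too, and the medians with Prl included were −0.52, −0.089 and 0.39. They are therefore not over the same markers, and Prl itself was at 0.11 (SE 1.14) in pair-fed against control. Markers of neurons in general, astrocytes, oligodendrocytes, their precursors, microglia, tanycytes, choroid plexus, striatum and thalamus had medians between −0.046 and 0.19, −0.093 and 0.15, and −0.18 and 0.064. When ad libitum libraries 1 and 3 were left out, they lay between −0.12 and 0.31, −0.094 and 0.15, and −0.21 and 0.052. The highest of them in ad libitum against control was that of oligodendrocytes, at 0.31, where edgeR then called 2 of 8 markers higher, Mal (log2 0.43, edgeR adjusted p = 0.0111) and Mobp (0.42, 0.0333), and the next was that of thalamus, at 0.23. In the same fit edgeR also called Opalin (0.65) higher and the striatal marker Pde10a (−0.28) lower in pair-fed against control, and the astrocyte marker Aldh1l1 (−0.18) lower and the ependymal marker Rsph1 (0.40) higher in pair-fed against ad libitum, with adjusted p of 0.000107, 0.00170, 0.0377 and 0.0126. With all libraries in, DESeq2 and limma-voom each called 1 oligodendrocyte marker higher and 1 striatal marker lower in pair-fed against control. Each also called 1 astrocyte marker lower between the risperidone groups. DESeq2 alone called 1 astrocyte and 1 cortex marker higher and 1 pituitary marker lower in ad libitum against control. It also called 1 cortex and 1 precursor marker lower between the risperidone groups. With the cortex marker level as a covariate, the log2 fold change in ad libitum against control was −0.59 for Rrad, −0.54 for Gem and −0.55 for Arl4d. Whether the shifts of the other markers have a part in the values of Rrad and Gem was not tested. In bulk tissue, fewer cells of a type and less RNA per cell cannot be told apart.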

How the data were processed

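RNA sequencing libraries of total RNA were read as paired ends of 150 bp on a DNBseq instrument, per the labels' protocols. The authors deposited raw counts of reads per gene for 20 libraries, with no normalization. STAR, featureCounts and DESeq2 are named with the builds GRCm38 and mm10, per the submitters' processing notes. The sources used here name no version, strand setting or annotation release. Of 55471 identifiers, 55230 matched the GENCODE M21 annotation, and the others held 0.00354% of the counts. No pair of libraries within a group agreed within sampling noise (lowest chi-square per degree of freedom 2.64 over 57 pairs), so none was treated as a copy of another. This check cannot show that each library came from its own mouse.

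The main test was edgeR's quasi-likelihood F test (edgeR 4.0.16, R 4.3.3), two-sided, on these counts, with TMM scaling, filterByExpr (minimum count 10) and 1 coefficient per group over all 20 libraries. P-values were adjusted with Benjamini-Hochberg over 17893 genes. Levels are CPM on the TMM-scaled sizes, and log2 CPM used a prior count of 2. The common biological coefficient of variation was 11.3%. The script was tested on simulated data. DESeq2 1.42.0 and limma-voom (limma 3.58.1) were alternatives, beside other scalings and filters, robust dispersion, a replicate block, a cortex marker covariate, the 2 groups alone, and leaving out libraries.

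The members and the 24 gene lists (8 of partners and responses, 16 of markers) were chosen with earlier results of these data known. Named from each partner or response list were up to 3 genes that passed by smallest p, or the 2 with the smallest p where none passed. The 5 genes most like Rrad and Arl4d were named by correlation, leaving out predicted genes and pseudogenes. The genes most like Rrad and Arl4d with the group means left in, and the correlations of Ddit4, Errfi1, Nfkbia and Fos with members, were chosen after their values were seen. 1 gene among those most like Rrad with the group means left in is not reported here.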

Additional observations from a re-analysis of the deposited data

Results flagged for a closer look

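A library stood far from the others of its group in 3 of 21 combinations of member and group, where chance gives about 1 in 20. Arl4d was at 6.01 CPM in pair-fed library 5, the lowest of that group, against 9.34 CPM in the next one. Arl4a was at 36.3 CPM in ad libitum library 1, the highest of that group, against 28.3 CPM in the next one, and that library also had the highest cortex markers. Rem1 was at 1.23 CPM in control library 5, the highest of that group, against 0.738 CPM in the next one. The change of Rrad against control differed between the risperidone groups by 0.87 on the log2 scale (pair-fed minus ad libitum), with all 6 pair-fed libraries above all 7 ad libitum libraries. Rrad was selected on such values, so this is a description, and how many of all genes tested separate like this was not counted.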

How the results depend on the processing

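Rrad and Arl4d kept the direction of each log2 fold change under all 32 alternatives. Both were selected on their values in these libraries, which the alternatives fit again, so this is a description and no test. In ad libitum against control the values were −0.70 to −0.55 for Rrad and −0.63 to −0.53 for Arl4d. They were 0.14 to 0.26 and −0.94 to −0.79 in pair-fed against control, and 0.76 to 0.92 and −0.36 to −0.20 between the risperidone groups. The number of genes called in ad libitum against control was 11, and 102 with DESeq2, 51 with limma-voom, 30 with the cortex covariate, 48 without ad libitum libraries 1 and 3, 3 with the 2 groups alone and 0 to 35 leaving out 1 library. In pair-fed against control it was 87, and 134, 223, 150, 250, 245 and 66 to 166 in the same order. Between the risperidone groups it was 71, and 172, 139, 140, 142, 31 and 39 to 130. The first count was 35 without ad libitum library 1, 27 without library 4, 5 without library 6, 0 without library 2 or 7, 0 without any 1 of control libraries 1 to 5 and 1 without control library 6. The second was 166 without ad libitum library 1. The third was 130 without ad libitum library 1 and 47, 41, 40 and 39 without pair-fed library 1, 4, 5 and 6. Relatives called were 1 with DESeq2 and 0 to 1 leaving out 1 library in ad libitum against control and between the risperidone groups. The causes were not tested.

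The replicate block called 1 gene in ad libitum against control. The correlation of same-numbered libraries passed 0.1 in 1 of 7, 1 of 6 and 0 of 6 pairs, and was 0.30 at the highest. Differently numbered libraries were not compared, so these values do not settle whether the numbers pair the libraries.

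Small values changed sign, all with an adjusted p above 0.6. Rem2 in ad libitum against control was −0.0165 with upper-quartile scaling, −0.00468 with no low-count filter, −0.0542 with limma-voom, −0.00611 with the replicate block, −0.168 with the cortex covariate, −0.0454 without ad libitum libraries 1 and 3 and −0.0951 to 0.0657 leaving out 1 library. Arl4a in that comparison was −0.00694, −0.000712, −0.0245, −0.0883 and −0.0372 under the same settings other than the block, and −0.0586 to 0.0350 leaving out 1 library. Arl4a between the risperidone groups was 0.00727 with limma-voom, 0.0614 with the covariate, 0.00608 without both libraries and −0.0843 to 0.0299 leaving out 1. In pair-fed against control, leaving out 1 library gave −0.0766 to 0.00188 for Arl4a and −0.159 to 0.110 for Rem1, which was 0.0333 with limma-voom. Rem1, with 8 to 22 counts a library, is limited by depth.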
